A study of Drosophila melanogaster with 3 samples.

Results

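Cyclins, their kinases and the proteins that switch them on or off drive a cell from one division to the next. A set of 10 such genes of Drosophila melanogaster is described here, by the ChIP-seq peaks of the protein Pif1A that lay at them: CycA, CycB, CycD, CycE, CycG, Cdk1, Cdk2, Cdk12, fzr and stg. They were chosen by name, and they are 10 of 13968 annotated protein-coding genes. Pif1A takes its name from its interaction with the PFTAIRE kinase Eip63E, a relative of the cyclin-dependent kinases. A summit, the highest point of a peak, was taken when it lay inside one of these genes or within 2 kb of it. The optimal list, the most selective of the deposited peak lists, holds 16 such summits among its 7283.

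One group was studied. It consisted of whole pupae of mixed sex and unstated age from a transgenic Drosophila line whose Pif1A carries GFP at its C-terminal end, and an antibody against GFP recovered the tagged protein from chromatin sonicated to between 200 and 800 bp. The 3 samples are biological replicates. All 3 replicate lists and the pooled list derive from 1 common control, per the deposited file descriptions. Pupae without the tag were not analysed here, so signal that does not depend on Pif1A cannot be told apart from binding. In whole pupae, a site held in few cells and a site held weakly in many cannot be told apart either.

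In G1 phase, cyclin D with its kinase Cdk4 promotes growth and cyclin E with Cdk2 starts DNA replication. Cyclins A and B with Cdk1 carry the cell through mitosis once the phosphatase String, encoded by stg, has removed an inhibitory phosphate from Cdk1. Fizzy-related, encoded by fzr, then directs the anaphase-promoting complex to the mitotic cyclins, and it is needed where cells stop dividing or enter endocycles. During metamorphosis imaginal cells complete their last divisions while larval tissues are broken down.

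The windows of 101 bases around 6 of the 16 summits are shown, because these are the highest peaks at fzr, stg and CycE, a further stg peak inside the gene, and a pair of promoter regions shared with a neighbouring gene. All are the plus strand of dm6, with the summit in the middle, read from the RefSeq copy of Release 6. Capitals mark a match to a searched motif, and only the E-box CACGTG in the first stg window is one.
fzr, downstream, chrX:4666937-4667037: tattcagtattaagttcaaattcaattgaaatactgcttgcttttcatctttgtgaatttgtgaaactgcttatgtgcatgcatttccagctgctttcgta
stg, upstream, chr3R:29256283-29256383: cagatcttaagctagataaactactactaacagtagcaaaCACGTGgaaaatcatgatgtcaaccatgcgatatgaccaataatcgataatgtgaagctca
stg, intron, chr3R:29254509-29254609: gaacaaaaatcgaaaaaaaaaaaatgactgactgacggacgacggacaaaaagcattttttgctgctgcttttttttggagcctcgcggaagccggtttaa
CycE, intron, chr2L:15743704-15743804: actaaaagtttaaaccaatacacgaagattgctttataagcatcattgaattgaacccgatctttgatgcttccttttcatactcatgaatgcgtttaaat
Cdk12 and SAK, chr3L:21516031-21516131: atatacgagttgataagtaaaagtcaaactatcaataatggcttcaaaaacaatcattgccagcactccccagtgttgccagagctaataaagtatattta
Cdk1 and mRpS7, chr2L:10386509-10386609: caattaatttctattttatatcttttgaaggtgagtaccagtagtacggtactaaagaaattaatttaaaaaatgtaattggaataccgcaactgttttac

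An optimal summit was found at 7 members: fzr, stg, CycE and Cdk12 had 3 each, Cdk1 had 2, and CycB and CycG had 1 each. CycA, CycD and Cdk2 had none. The optimal peaks of CycE and of Cdk12 each include an overlapping pair, and merging these leaves 14 regions at the members. Across all protein-coding genes, 28.7% had an optimal summit inside or within 2 kb, and 6.75% had 3 or more. The members are long, with a median of 5177 bp against 2165 bp for all coding genes. Among the 8083 coding genes between the shortest member (1524 bp) and the longest (20570 bp), 31.0% had a summit. This range is wide and was not matched to the members' median, so it accounts for length only in part. At the stricter window of 500 bp around a transcription start site (TSS), 5 members were reached (Cdk1, Cdk12, CycE, CycG and fzr), against 14.1% of all coding genes and 16.0% of those in the same length range.

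These counts were taken again in the 7283 highest peaks of each replicate, as many as the optimal list holds. Members with a summit inside or within 2 kb numbered 7 in replicate 1, 6 in replicate 2 and 7 in replicate 3 (6.67 ± 0.577, SD, n = 3), against 31.5% ± 0.894 (SD, n = 3) of coding genes. Members with a summit within 500 bp of a TSS numbered 6, 4 and 3 in replicates 1, 2 and 3 (4.33 ± 1.53, SD, n = 3), against 16.2% ± 0.961 (SD, n = 3) of coding genes. Cdk12, CycE and fzr were reached at a TSS in every replicate, Cdk1 in replicates 1 and 2, and CycG and stg in replicate 1. No test was run on the members as a set, because they had been proposed with results of these data known, and the shares are given side by side as a description.

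**Figure D1:**
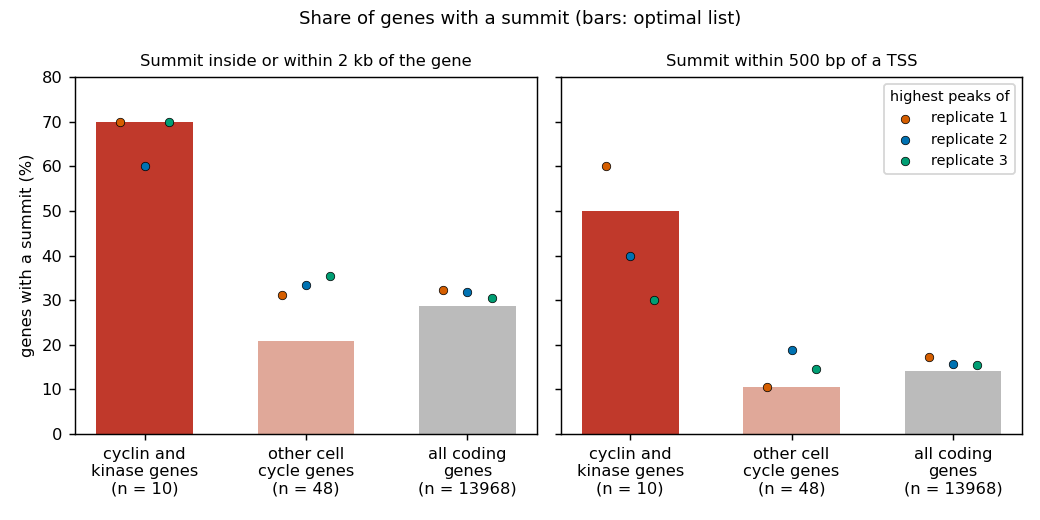
Share of genes with a summit inside or within 2 kb of the gene (left) and within 500 bp of a TSS (right), in percent, for the 10 members, 48 other cell cycle genes and 13968 coding genes. Bars are the optimal list and points the 7283 highest peaks of each replicate; at the TSS the members' points spread over 3 to 6 genes of 10.

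The places of the summits are given as counts, with no share over the whole optimal list beside them. Choosing summits inside or within 2 kb of a gene favours gene starts and introns by construction. Of the 16, 7 were upstream of the member, 7 inside it and 2 downstream of its 3' end. By location, 10 were within 500 bp of a TSS of some gene, 5 were in introns and 1 was intergenic. Only 7 were within 500 bp of a TSS of the member itself. TSSs of 2 genes lay within 500 bp of 3 of the 16, against 6.63% of all optimal summits with TSSs of 2 or more genes there. Among these 3 is a pair of overlapping peaks at the same Cdk12 and SAK promoter region. The 16 were chosen for lying near a gene, whereas the share over all optimal summits includes distal ones. The median rank of the 16 by the deposited signal value, called the score below, was 2816 in the optimal list, whose median rank is 3642. Their median score was 186, beside a median of 153 over the optimal list.

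**Figure D2:**
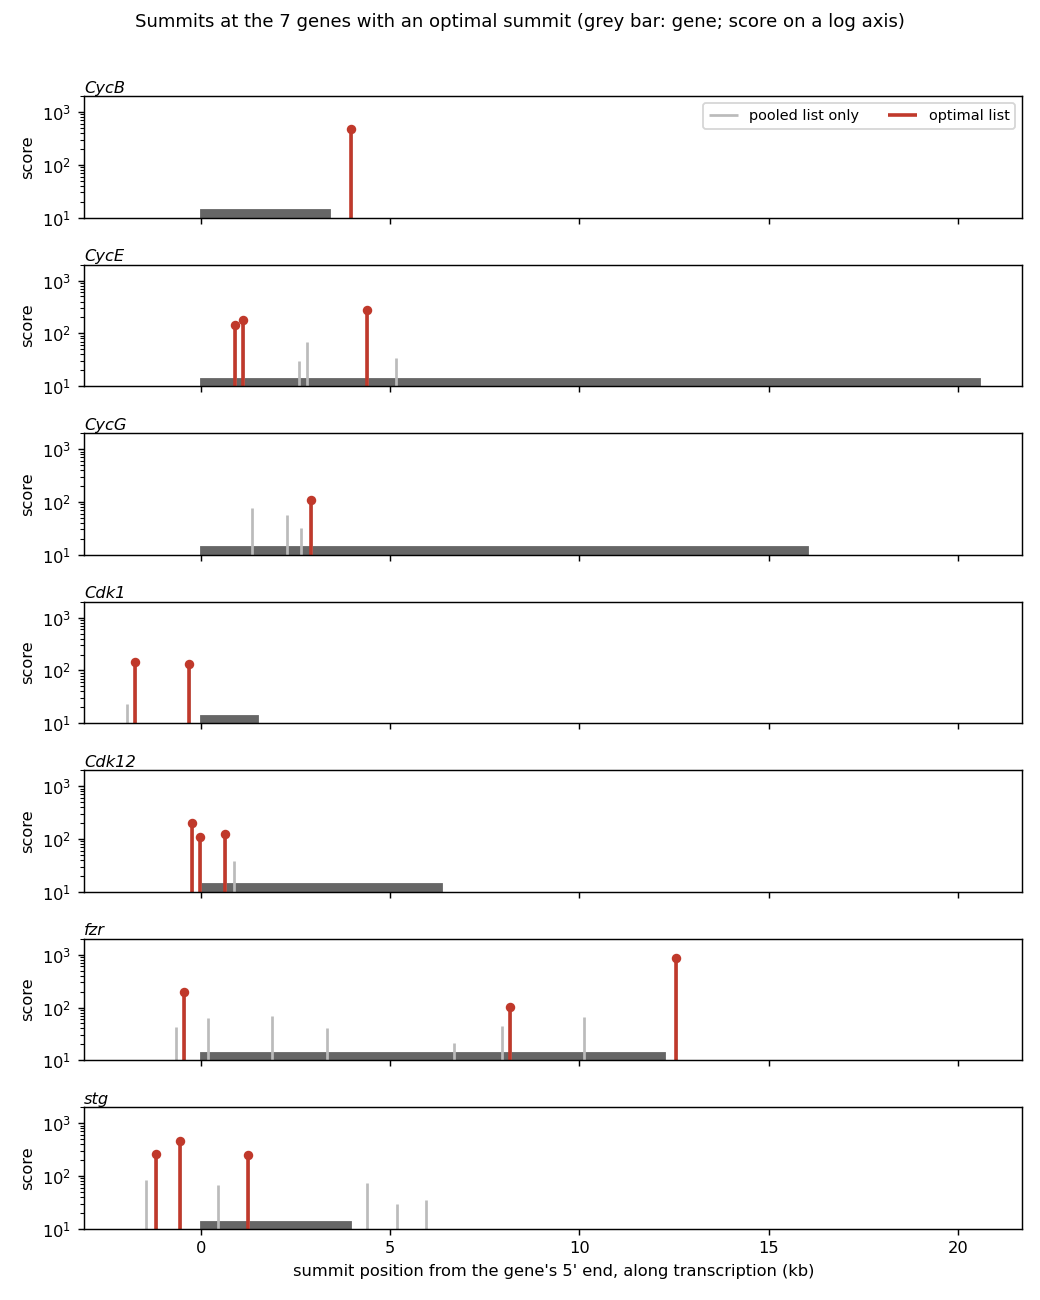
Position of each summit from the 5' end of the gene along the direction of transcription (kb) against its score (log axis), for the 7 members with an optimal summit. Red stems are optimal summits, grey stems entries found only in the pooled list, and the dark grey bar is the gene; the highest stems at fzr and CycB stand beyond the 3' end.

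Cyclin E was the G1 cyclin with peaks. CycE (FBgn0010382, 2L, 15727581 to 15748150, minus strand) had 3 optimal summits in its 5' part. The highest lay in an intron 4396 bp from the 5' end (score 271, rank 1588) and ranked 1208, 1476 and 2640 in replicates 1, 2 and 3. The next pair, 217 bp apart with peaks that overlap by 207 bp, lay 1119 bp and 902 bp from the 5' end. Of this pair, the summit 421 bp from a CycE TSS (score 176, rank 3017) ranked 2532, 6788 and 2794 in the replicates. The other (score 147, rank 3836) ranked 3142, 8740 and 5625, so replicate 2 was the lowest for both. The first 2 of the 3 CycE summits were found in the highest peaks of all 3 replicates.

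CycD, the gene of the cyclin that partners Cdk4, and Cdk2, the kinase partner of cyclin E, had no entry even in the pooled list of 30000, which reaches down to background. No pooled entry lay inside or within 2 kb of 51.0% of coding genes. For CycD (FBgn0010315, X, 15906822 to 15909676), the lists of replicates 1 and 2 held nothing, and replicate 3 held 1 entry at rank 23317. For Cdk2 (FBgn0004107, 3R, 20735623 to 20738414), each replicate held 1 entry, at ranks 23096, 28762 and 16855, far below the highest 7283. Only that of replicate 1 was near the Cdk2 TSS, 224 bp away; those of replicates 2 and 3 lay beyond the 3' end, near TSSs of CG17267 and CG42322. The optimal summit closest to either gene was 20009 bp from CycD and 25882 bp from Cdk2.

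Among the mitotic genes, stg had optimal summits on both sides of its 5' end. The gene (FBgn0003525, 3R, 29251826 to 29255800, minus strand) had optimal summits 533 bp and 1187 bp upstream and 1241 bp into the gene. The summit 533 bp upstream, whose window holds the E-box printed above, had a score of 465 (rank 624) and ranked 572, 611 and 767 in replicates 1, 2 and 3. It lay 152 bp from the TSS of CG45544, a coding gene that runs away from stg, and was 1 of 3 members' summits among the first 728 peaks of the optimal list. The summit 1187 bp upstream (score 263, rank 1648) lay in an intron of CG45544 and ranked 1501, 1805 and 2096. The intronic summit of stg (score 252, rank 1749) ranked 950, 3124 and 2564, the widest spread of the 3. All 3 were found in the highest peaks of every replicate.

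No optimal summit lay within 500 bp of a stg TSS. The pooled list held 1 there, 7 bp from a TSS at rank 9621 (score 67.6), and the best TSS-proximal entries of the replicates ranked 5938, 10083 and 10163, so only replicate 1 reached the highest 7283. A further entry past the 3' end of stg stood among the highest peaks of replicate 1 (rank 4145, 4602 bp from the 5' end) and replicate 2 (rank 7018, 4552 bp). The pooled list had an entry 4400 bp from the 5' end at rank 8898, its summit more than 100 bp from both, and the optimal list had none. Replicate 3 held entries closer to the 3' end, at ranks 7840 (4284 bp) and 10986 (4080 bp), below the highest 7283.

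Cdk1 (FBgn0004106, 2L, 10384739 to 10386262, minus strand), the kinase that cyclins A and B activate, had 2 optimal summits, and both were nearer to another gene. One lay 297 bp upstream of its single TSS and 103 bp from that of mRpS7, a mitochondrial ribosomal protein gene transcribed the other way (score 131, rank 4443). It ranked 3864 in replicate 1 and 5278 in replicate 2, and the closest summit of replicate 3 was 1459 bp away. The other lay 1743 bp upstream of Cdk1 and 100 bp from the TSS of da, the gene of the helix-loop-helix factor Daughterless (score 142, rank 4004), and ranked 3623, 7447 and 3481.

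CycB had a single peak, and it lay past the 3' end. The gene (FBgn0000405, 2R, 22803521 to 22806948, minus strand) is followed by an optimal summit 531 bp downstream at position 22802990 (score 479, rank 579). That summit was the second highest of the 16, and it ranked 839, 554 and 524 in replicates 1, 2 and 3. It was 3313 bp from the nearest TSS, one of CycB. The neighbour on the far side, blw, which encodes the alpha subunit of mitochondrial ATP synthase, also ends there, 810 bp from the summit, so the peak stood between the ends of genes that converge. Near the CycB TSSs no optimal or pooled entry was listed, and the replicates held entries only at ranks 26786 (replicate 1) and 17421 (replicate 2).

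CycA (FBgn0000404, 3L, 11826719 to 11833578), the other mitotic cyclin gene, had no optimal or pooled entry, and the optimal summit nearest to it was 41415 bp away. Replicate 1 held 3 entries in the gene at ranks 16512, 18059 and 20169, while replicates 2 and 3 held none. CycA, CycD and Cdk2 thus had entries only in the lower part of the replicate lists.

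fzr (FBgn0262699, X, 4667290 to 4679537, minus strand) had the highest peak of all members, but that peak stood between fzr and the next gene. Its summit, shown above, lay 303 bp past the 3' end of fzr and 287 bp upstream of a TSS of CG3009, a gene on the same strand. The score was 871 (rank 133 of 7283), and the peak ranked 146, 116 and 171 in replicates 1, 2 and 3. The summit at the start of fzr itself lay 451 bp upstream of a TSS, at the last base of Pp2C1, a phosphatase gene on the same strand (score 195, rank 2615). It ranked 3361, 2829 and 2520 in the replicates. The remaining summit, in an intron 8173 bp from the 5' end, had the lowest score of the 16 (104, rank 6001) and ranked 7258, 5500 and 8358 in the replicates.

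CycG and Cdk12 have roles beyond the core cycle. Cyclin G is an atypical cyclin tied to growth and metabolism in flies, and Cdk12, with its partner cyclin K, phosphorylates the tail of RNA polymerase II. CycG (FBgn0039858, 3R, 31596642 to 31612664, minus strand) had 1 optimal summit, 58 bp from one of its 3 TSSs (score 107, rank 5774). It ranked 5873 in replicate 1, 8021 in replicate 2 and 10638 in replicate 3, so only replicate 1 had it among the highest 7283. A pooled entry at rank 8565, outside the optimal list, lay inside CycG, 318 bp from a CycG TSS. It was also 250 bp from a TSS of Med, a Smad gene that overlaps the start of CycG. Replicates 2 and 3 had a summit within 100 bp of this entry at ranks 7808 and 12550, both below the highest 7283. Replicate 1 had none there.

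Cdk12 (FBgn0037093, 3L, 21516306 to 21522684, plus strand) shares its promoter region with SAK, which encodes the polo-like kinase of centriole duplication and runs in the opposite direction. The highest summit lay between the genes, 225 bp from the Cdk12 TSS and 194 bp from that of SAK (score 204, rank 2429). It ranked 1689 in replicate 1 and 2953 in replicate 3. Replicate 2 had no summit within 100 bp and placed its own 132 bp away, at rank 2784. A second summit 24 bp upstream of Cdk12 (score 108, rank 5682) overlapped the first peak by 119 bp. It was matched by that same peak of replicate 2, by an entry at rank 16539 in replicate 1 and by none in replicate 3. The third, 631 bp into the gene and 250 bp from its second TSS (score 127, rank 4657), ranked 3648, 3730 and 11167. The SAK and Cdk12 TSSs cannot be told apart as the target of the first 2 summits.

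**Figure D3:**
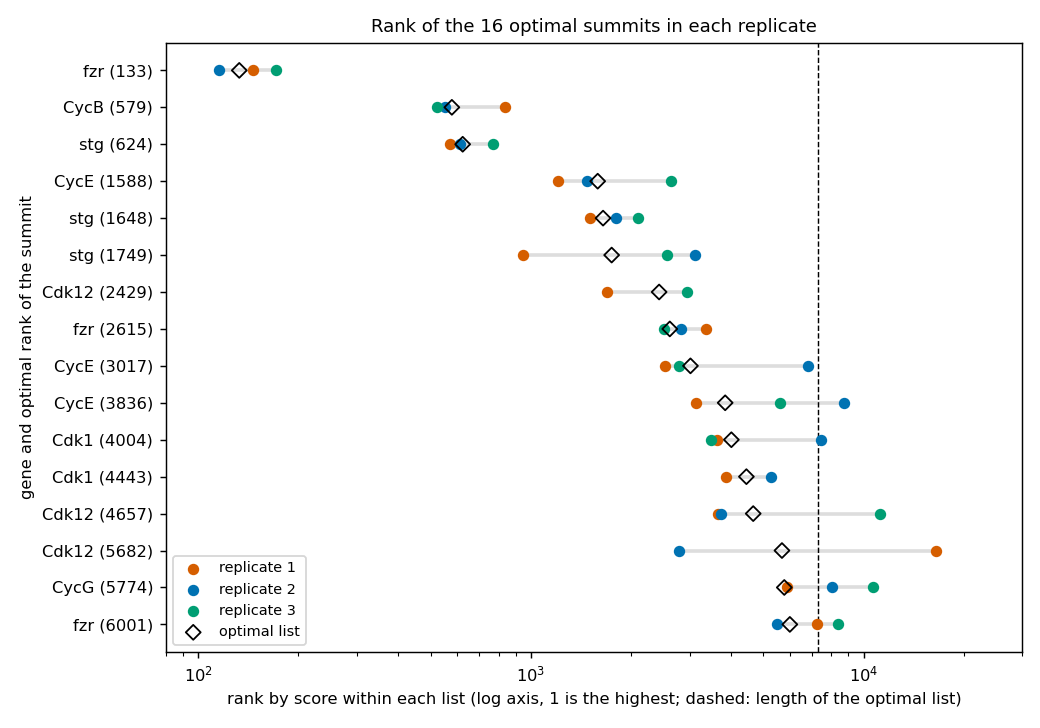
Rank of each of the 16 optimal summits (rows, with gene and optimal rank) in the optimal list and in each replicate, on a log axis where 1 is the highest peak. The dashed line is rank 7283; the 3 strongest summits at fzr, CycB and stg stay within ranks 116 to 839, and replicate ranks spread widely among the weaker ones.

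Replicate support was counted in the highest 7283 peaks of each replicate, a limit that lower peaks miss more easily by construction, since the optimal ranks come from the same replicates. Of the 16 summits, 8 were matched within 100 bp in the first 7283 entries of every replicate, 6 were matched in 2 replicates and 2 in 1. Over the optimal list 56.1% were found in all 3. The 8 were the 3 of stg, 2 of CycE, 2 of fzr and that of CycB, and all 8 ranked above the optimal list's median. In the whole replicate lists 13 of the 16 were matched in all 3, against 86.8% of optimal summits. The 45 matched replicate summits lay a median of 17 bp, and at most 81 bp, from the optimal summit. When a summit had to be matched in both replicates other than replicate 1, members with a summit fell from 7 to 4 (CycB, CycE, fzr and stg) and those reached at a TSS from 5 to 2 (CycE and fzr). With matches required in replicates 1 and 3 instead, those reached at a TSS were 3 (Cdk12, CycE and fzr).

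The sequence around the 16 summits was searched for motifs. In 16 windows, the absence of a motif that few optimal summits hold carries little information. DRE, E2F, E-box, GAGA, M1BP and Zelda motifs were sought on both strands within 50 bp of each summit, and matches at the summits of all members are compared with all optimal summits and with windows of the same length around 19275 coding TSSs. The E-box CACGTG, bound by Myc, Max and related factors, was at 1 of 16, the stg summit 533 bp upstream, where it starts 10 bp before the summit; 0.673% of optimal summits and 1.82% of TSS windows hold it. The GAGA repeat GAGAG was at 1 of 16, the intronic fzr summit, against 13.3% of optimal summits and 12.7% of TSS windows. None of the 16 held the DNA replication-related element TATCGATA, which 0.522% of optimal summits and 4.48% of TSS windows hold. The E2F words, TTTGGCGC and 3 variants, were absent too, at 1.30% and 2.35%. So were the M1BP core GGTCACACT (0.275% and 3.64%) and the Zelda site CAGGTAG (0.384% and 0.482%). The GC content of the 16 windows had a median of 32.2% and ran from 25.7% to 45.5%, beside a median of 32.7% for all optimal summits.

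Other genes of the division cycle were read in the same way. Of 48 (other cyclins, cyclin-dependent kinases, kinase regulators, anaphase-promoting complex, G1/S transcription, mitotic and checkpoint genes and a ubiquitin ligase gene), 10 (20.8%) had an optimal summit inside or within 2 kb and 5 (10.4%) within 500 bp of a TSS. The shares over all coding genes were 28.7% and 14.1%. In the highest peaks of the replicates, 16 ± 1 of the 48 genes (SD, n = 3) had a summit inside or within 2 kb, beside 31.5% of coding genes. Within 500 bp of a TSS, 7 ± 2 of the 48 (SD, n = 3) had one, beside 16.2%. As a mean share, the first was above that of coding genes, unlike in the optimal list, and the second was below. The 5 were Dp, the partner of E2F proteins (score 585, rank 357), Cdc16, a subunit of the anaphase-promoting complex (score 302, rank 1342, also near a TSS of orb), SAK, through the summit it shares with Cdk12, E2f1 (score 112, rank 5416) and Eip63E (score 89.7, rank 7078). These scores and ranks are those of the summit at a TSS. Inside or within 2 kb, E2f1 (40568 bp) had 14 optimal summits, Eip63E (94771 bp) 10, Dp and SAK 3 each and Cdc16 1. At a TSS, Dp, at ranks 409, 270 and 460 in the replicates, and Cdc16, at 1269, 3675 and 838, were matched in all 3. The Eip63E summit at a TSS was matched among the 7283 highest peaks of no replicate. Replicate 3 listed it at rank 8286 and replicates 1 and 2 did not list it. Replicate support of the other Eip63E summits is not given here. None of the 7 other cyclin genes had a summit inside or within 2 kb, CycK among them. Cdk4 had 1 optimal summit there and none at a TSS.

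Counting only summits within 500 bp of a TSS of the member itself, Cdk12 had the highest optimal peak (rank 2429). Over the 3 replicates, the genes whose best TSS-proximal peak ranked most like its own (1689, 2784 and 2953) were SAK, which has the same peaks, tara (1679, 2772 and 3062) and mnb (1648, 2893 and 2813), of 3124 genes with such an entry in every replicate. Likeness was the summed absolute log2 ratio of ranks, 0 for SAK, 0.067 for tara and 0.16 for mnb, over 3 samples.

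The window of 2 kb set the 16 summits. Inside it, the farthest was the one at da, 1743 bp from Cdk1. Outside it, the next were 2918 bp past fzr (score 88.3, rank 7213), 3496 bp upstream of CycG at Mnat9 and CG1792 (score 921, rank 119) and 4585 bp past CycB at blw (score 261, rank 1678).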

How the data were processed

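ChIP-seq of GFP-tagged Pif1A in whole pupae was analysed from narrowPeak lists on dm6. Per the deposited file descriptions, each replicate list and the pooled list were made as input for the irreproducible discovery rate (IDR) procedure from alignments and a shared control, and the optimal list from them. For the aligner, peak caller and IDR threshold, nothing is given in the sources used here. Peaks carry the signal value the authors deposited, whose scale is set by the list, so ranks were compared instead. The deposited −log10 q-value reaches its highest value, 3.86, at 9 of the 16 summits and was not used to rank. All 7283 optimal peaks are the highest 7283 of the pooled list. Depth is unknown from these files. The lists on dm3 were not used.

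A summit is the peak start plus the deposited offset. Positions are 1-based on dm6, with genes from Ensembl release 115 without pseudogenes and transposable elements. A replicate matched where a summit lay within 100 bp among its 7283 highest peaks. No test was run: there is 1 group and no contrast. The members, lists and rules were chosen with earlier results of these data known. The named genes are the members, genes with a TSS near or a body holding their optimal summits, the other cell cycle genes reached at a TSS, the members' partners, and the 3 genes most alike in rank. The neighbours CG17267, CG42322, Med, blw, orb, Mnat9, CG1792 and CG7611 were chosen after their values were seen. Window and matching steps were tested on simulated peaks with Python 3.11.15, pandas 2.3.3 and NumPy 2.4.6.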

Additional observations from a re-analysis of the deposited data

How the results depend on the processing

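Members with an optimal summit inside or within 2 kb stayed at 5 to 7 under other windows, nearest-gene assignment and the peaks above the median rank. They were 4 to 6 when a summit had to be matched in both replicates other than a given one. With no flank 5 members and 13.7% of coding genes had an optimal summit, and the members' summits fell from 16 to 7. With 5 kb 7 members and 41.2% of coding genes had one. With nearest-gene assignment there were 6 members, holding 9 summits, and 19.0% of coding genes. A TSS window of 200 bp left 2 members, 3 other cell cycle genes and 9.18% of coding genes. One of 1000 bp gave 6 members, 9 other cell cycle genes and 17.5% of coding genes. Nearest-TSS assignment gave 4 members and 12.2% of coding genes. Peaks above the optimal list's median rank left 5 members by gene, holding 9 summits, beside 19.7% of coding genes. At a TSS they left 3 members and 3 other cell cycle genes, beside 8.35% of coding genes. With a match required in both replicates other than a given one, 8 to 11 summits remained. At a TSS there were then 2 to 4 members and 2 to 3 other cell cycle genes. The coding shares were 22.6% to 23.1% by gene and 9.84% to 10.5% by TSS. The optimal list itself still came from all 3 replicates, so these falls reflect the added matching. Summits found in all 3 replicates, 8, became 13 with the whole lists. They were 6 when peaks had to overlap by 50% and 11 when they had to overlap by 1 bp. Keeping only those 8, chosen after seeing the data, left 4 members (2 at a TSS), 2 other cell cycle genes, and 20.9% and 8.99% of coding genes. Windows and list lengths set these counts by construction. No paired analysis was possible because there is 1 group. Unknown read depth limits what absence from a list shows.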

Other observations

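Peaks at CG7611, the gene that follows Cdk12, were high in 2 replicates and absent from the pooled list. Their summits lay 1567 bp past the 3' end of Cdk12 in replicate 3 (score 91.7, rank 1827, higher there than any summit at the Cdk12 promoter) and 1583 bp past it in replicate 1 (score 46.0, rank 4220). Replicate 2 held no entry there, and no pooled peak overlapped either one. The closest pooled summits were 7066 bp before and 57933 bp after that of replicate 3. Of the 7283 highest peaks, 5.85%, 6.30% and 4.34% in replicates 1, 2 and 3 overlapped no pooled peak. The cause was not tested.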
